A study of Mus musculus with 18 samples.

Results

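miR-150-5p and miR-342-3p (mmu-miR-150-5p and mmu-miR-342-3p in the files) are the 2 microRNAs (miRNAs) described here, out of 369 miRNA names found in 411434 chimeric reads of 6 Ago2 immunoprecipitation (IP) libraries from mouse thymocytes. They were selected on the measured share of reads in these libraries, which was lower in thymocytes that lack miR-181a/b-1 than in wild-type thymocytes, so that difference is given below as a description and carries no test. Their members are the reads that bear their names: 1526 reads of miR-150-5p and 470 reads of miR-342-3p in the Ago2 IP libraries, and 80 and 17 reads in libraries further enriched for miR-181. The method, miR-eCLIP, ligates a miRNA to the RNA held with it in an Argonaute complex, so that each chimeric read names a miRNA and a position on its partner RNA.

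Wild-type samples were total thymocytes of C57BL/6 mice, and knockout samples were total thymocytes of B6.Mirc14tm1.1Ankr mice, titled miR181a/b-1-KO. All mice were 6 weeks old and kept under specific-pathogen-free conditions, and the cells were crosslinked with ultraviolet light before the IP. Each genotype had 3 Ago2 IP libraries and 3 libraries in which an enrichment for miR-181 followed the Ago2 IP. The 6 input samples were not analysed here. Nothing in the labels says whether libraries of a group came from separate mice, so a p-value below measures only the spread between these libraries. In bulk thymocytes, fewer cells of a type and less of a miRNA per cell cannot be told apart.

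A miRNA guides Argonaute proteins to messenger RNAs by pairing mainly through its seed, the bases near its 5′ end, and the bound messages are repressed or degraded. miR-150 is known as a miRNA of mature B and T lymphocytes that is low in their early progenitors, and its best known target is Myb, a transcription factor of progenitor cells. miR-342 lies in an intron of Evl, a gene for a regulator of the actin cytoskeleton, and is likewise known from blood cells. miR-181a/b-1, the miRNA cluster missing in the knockout, is abundant in CD4+ CD8+ thymocytes and known to tune T cell receptor signalling.

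Of the 2 members, miR-342-3p had a mature sequence in the RefSeq table used here (GRCm38.p6), and miR-150-5p is named only. The sequences below show the miR-342-3p seed, bases 2 to 8, in capitals, the seeds of the opposite arms of both hairpins likewise, and the Mir342 hairpin with the stretch of miR-342-3p in capitals.
miR-342-3p: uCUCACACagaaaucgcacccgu
miR-342-5p: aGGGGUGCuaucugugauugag
miR-150-3p: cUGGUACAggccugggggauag
Mir342 hairpin: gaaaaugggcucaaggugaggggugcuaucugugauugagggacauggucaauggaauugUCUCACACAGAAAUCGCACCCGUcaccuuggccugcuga
The miR-342-3p stretch is chr12:108658680-108658702 on the plus strand, inside the 99-base hairpin at chr12:108658620-108658718. miR-150-3p is chr7:45121798-45121819 on the plus strand, inside the Mir150 hairpin at chr7:45121757-45121821. The seed CUCACAC was held by 1 of 1679 mature mouse miRNA names in the table, miR-342-3p itself, so no other listed miRNA shared it.

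The Ago2 IP libraries held 43983 to 117849 chimeric reads each for wild type and 52100 to 67639 for the knockout. Reads of the miR-181-5p family made up a part of each library that was far smaller in the knockout than in wild type, so shares were taken over the other reads, called non-181 reads: 29782 to 82339 per wild-type library and 51350 to 66699 per knockout library. The enriched libraries held few such reads, 1582 to 3594 in wild type and 1870 to 5282 in the knockout. Intervals given with shares are 95% Wilson intervals and cover counting error only. Chimeric reads at 9 thymocyte marker genes, Rag1, Themis and Cd4 among them, had a median of 1.15% of non-181 reads over wild-type libraries and of 1.02% over the knockout libraries (highest 1.18% and 1.07%), with all 9 detected in wild type and Ptcra at 0 in the knockout. The 4 B cell markers had 4 and 1 reads, the 3 myeloid markers 4 and 5, the 4 erythroid markers 11 and 5, and none was found at the 4 thymic epithelial markers (Epcam, Krt5, Krt8, Psmb11).

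miR-150-5p took 0.530%, 0.467% and 0.507% of the non-181 reads of wild type in the 3 Ago2 IP libraries, against 0.380%, 0.448% and 0.368% in those of the knockout. The lowest wild-type library lay above the highest knockout library, by a margin smaller than the interval of either (0.410 to 0.533% against 0.400 to 0.502%). The mean was 0.501% ± 0.0315 (SD, n = 3) in wild type and 0.399% ± 0.0433 (SD, n = 3) in the knockout, which makes the wild-type mean 1.26 times the knockout mean. These shares rest on 810 wild-type and 716 knockout reads. By them miR-150-5p ranked 27 among 313 non-181 miRNAs with reads for wild type and 33 among 319 for the knockout.

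miR-342-3p was less frequent, with 0.192%, 0.136% and 0.185% of non-181 reads in wild-type and 0.127%, 0.0840% and 0.117% in knockout Ago2 IP libraries. Again the genotypes did not overlap, and library 2 was the lowest of its group in both. The mean was 0.171% ± 0.0303 (SD, n = 3) in wild type and 0.109% ± 0.0224 (SD, n = 3) in the knockout, a wild-type mean 1.57 times the knockout mean, from 278 and 192 reads. miR-342-3p ranked 45 in wild type and 57 in the knockout. The number of miR-150-5p reads per miR-342-3p read was 2.76, 3.43 and 2.75 in wild type and 3, 5.34 and 3.15 in the knockout, so these ratios overlapped between genotypes.

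Both members were among the miRNAs whose wild-type and knockout libraries did not overlap, and that pattern was common: 16.8% of the 119 miRNAs tested were lower in the knockout without overlap. In an edgeR quasi-likelihood fit over these 119 miRNAs, 5.88% passed an adjusted p of 0.05 in either direction, and the median log2 fold change was -0.01. Only the miR-181-5p names were left out, so the 119 include miR-181a-1-3p, of the cluster missing in the knockout. It had the lowest log2 fold change, -7.17. The fitted log2 fold change, knockout over wild type, was -0.37 (SE 0.10) for miR-150-5p and -0.71 (SE 0.18) for miR-342-3p. They stood in places 14 and 3 of the 119 from the lowest, and since this contrast chose the members, no test is attached. The choice of denominator sets the direction for miR-150-5p. As a share of all chimeric reads, miR-181 included, it averaged 0.345% ± 0.0236 in wild type and 0.393% ± 0.0427 in the knockout (SD, n = 3 each), while miR-342-3p averaged 0.118% ± 0.0210 and 0.108% ± 0.0221.

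**Figure D1:**
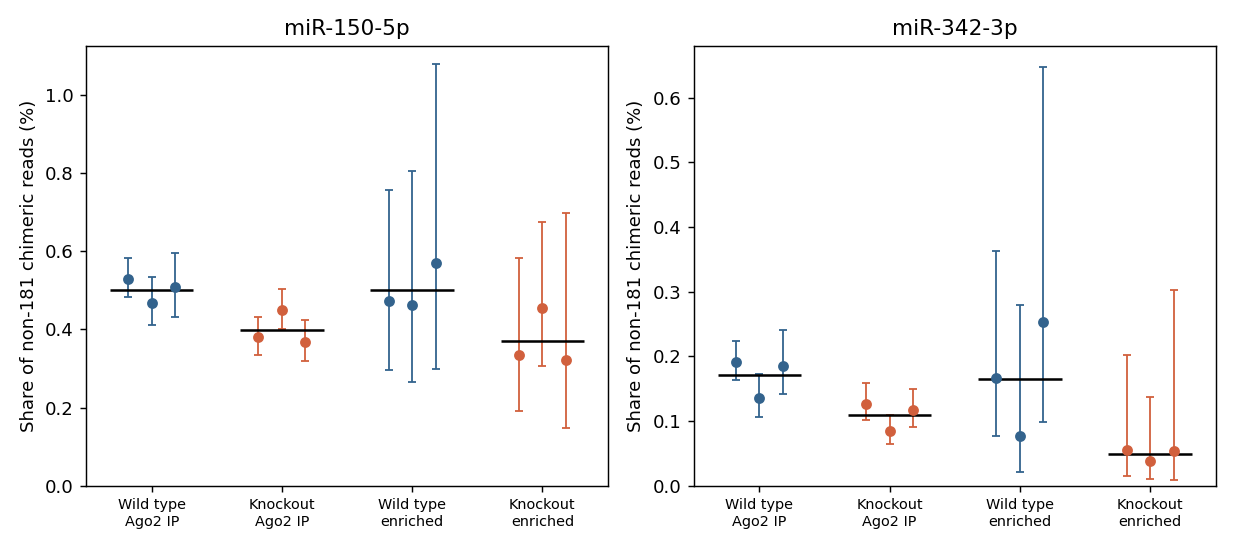
Share of non-181 chimeric reads (%, y axis) taken by miR-150-5p (left) and miR-342-3p (right) in each library of 4 groups (x axis). Points are libraries, vertical bars 95% Wilson intervals and black lines group means; in the Ago2 IP libraries wild type averages 0.501% against 0.399% for miR-150-5p and 0.171% against 0.109% for miR-342-3p, and the enriched libraries have far wider intervals.

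**Figure D2:**
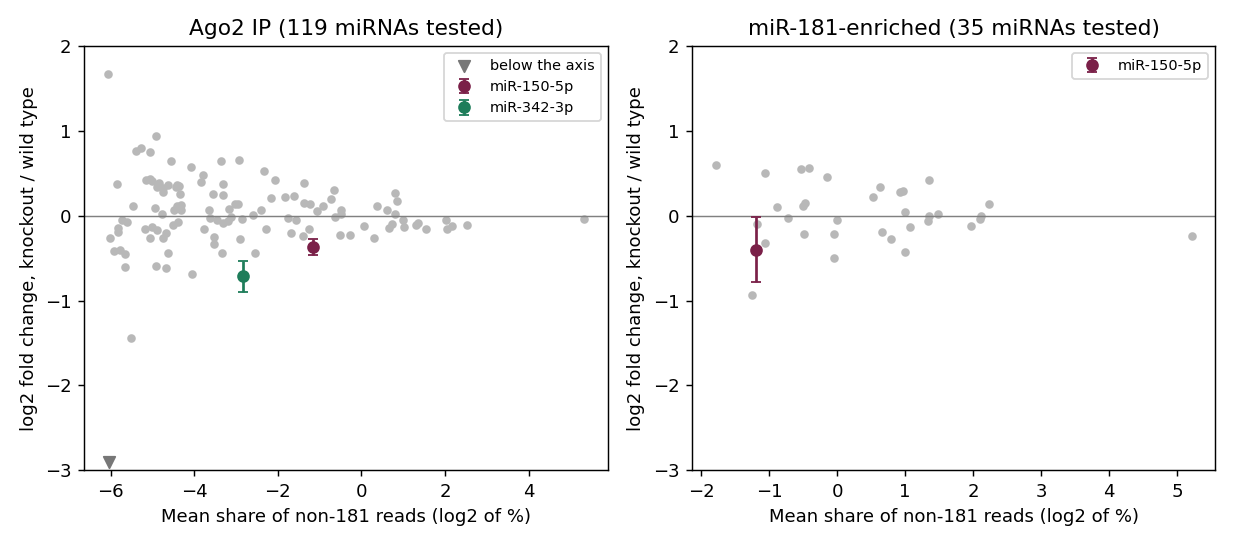
Fitted log2 fold change, knockout over wild type (y axis), against the mean share of non-181 reads on a log2 scale (x axis) for the miRNAs tested in the Ago2 IP (left, 119) and miR-181-enriched libraries (right, 35). Grey points are miRNAs, coloured points the members with their standard errors, and the triangle is miR-181a-1-3p, at -7.17 below the axis; miR-342-3p was not tested in the enriched libraries.

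The opposite arms of both hairpins were rare. For miR-342-5p the Ago2 IP counts were 16, 5 and 8 (wild type) against 2, 5 and 4 (knockout), or 0.0189% ± 0.00820 against 0.00621% ± 0.00249 of non-181 reads (SD, n = 3 each). As with miR-342-3p, every wild-type share lay above every knockout share, a pattern found in 16.8% of the 119 miRNAs tested above. The nearest libraries, wild-type 2 and knockout 3, had 5 and 4 reads (0.0105% and 0.00779%), and their intervals overlapped. In the enriched libraries miR-342-5p had 1 wild-type read and 2 knockout reads. miR-150-3p had 7 reads in all wild-type libraries together and 5 in all knockout libraries, too few to compare.

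The other markers of maturation and of other cells in these libraries were as follows. Reads at 4 mature T cell marker genes (Ccr7, S1pr1, Klf2, Il7r), which are raised as thymocytes prepare to leave the thymus, made up 0.0754 to 0.103% of wild-type non-181 reads and 0.0487 to 0.0585% of those of the knockout, from 147 and 99 reads, with all 4 genes detected in both. They were thus lower in the knockout without overlap, as both members were, and the thymocyte marker genes were lower without overlap too, by a smaller ratio of the medians. How common this is among lists of genes was not tested. The sum of miR-155-5p and miR-146a-5p, miRNAs of activated lymphocytes, was 0.763 to 0.826% in wild type and 0.667 to 0.744% in the knockout. miR-155-5p made up most of it, at a mean of 0.742% against 0.651%, while miR-146a-5p averaged 0.0434% in wild type and 0.0509% in the knockout. The epithelial miRNAs, with 3 of 4 detected and miR-205-5p at 0, took 0.0461 to 0.0604% and 0.0283 to 0.0448%. Most of these reads were miR-200c-3p, 74 of 83 in wild type and 55 of 65 in the knockout. miR-200b-3p averaged 0.00417% and 0.00180%, while miR-200a-3p averaged 0.00221% and 0.00385%, higher in the knockout. The epithelial sum and that of the activated lymphocyte miRNAs were lower in the knockout without overlap, as were 16.8% of the 119 single miRNAs tested. How common this is among sums of miRNAs was not tested. Endothelial and stromal miRNAs, with 2 of 5 detected in each genotype, had 13 and 13 reads. Erythroid miRNAs, with 2 of 3 detected and miR-144-3p at 0, had 17 and 13 reads, and the myeloid miR-223-3p had 24 and 25. The part of these cell types in the lower share of either member was not tested.

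By the correlation of log2 shares over the 6 Ago2 IP libraries, taken over 62 miRNAs with a mean of at least 50 reads, the miRNAs most like miR-150-5p were miR-93-5p (Pearson r 0.88), miR-21a-5p (0.84), miR-423-5p (0.81), miR-706 (0.78) and miR-25-3p (0.70). Those most like miR-342-3p were let-7d-5p (0.88), miR-15a-5p (0.83), miR-16-5p (0.82), let-7f-5p (0.75) and miR-155-5p (0.75). The members correlated with each other at r = 0.60, which placed each at rank 10 of the other's list. All these values share the same 6 libraries, the same genotype split and the same denominator, and they are a description.

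The miR-181-enriched libraries gave values of the same contrast that the choice of the members had not used; the labels do not say whether they were made from the same cells as the Ago2 IP libraries. There miR-150-5p took 0.473%, 0.461% and 0.569% of non-181 reads in wild type (17, 12 and 9 reads) and 0.333%, 0.454% and 0.321% in the knockout (12, 24 and 6 reads). The groups did not overlap. Their nearest libraries, at 0.461% and 0.454%, differed by less than the share of a single read. The means were 0.501% ± 0.0591 and 0.370% ± 0.0737 (SD, n = 3 each). miR-342-3p took 0.167%, 0.0769% and 0.253% in wild type (6, 2 and 4 reads) and 0.0556%, 0.0379% and 0.0535% in the knockout (2, 2 and 1 reads), again without overlap. The means were 0.166% ± 0.0880 and 0.0490% ± 0.00967 (SD, n = 3 each).

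On the log2 scale the knockout mean was below the wild-type mean by -0.45 for miR-150-5p and by -1.62 for miR-342-3p. The exact two-sided permutation test gave p = 0.1 for both, and 0.1 after Benjamini-Hochberg adjustment over the 2 members, which is the smallest p that 3 libraries against 3 can give. The design therefore could not reach 0.05. Counting identical reads of miR-150-5p once brought its groups into overlap (-0.40, exact permutation p = 0.3). Pooled over libraries, the ratio of wild-type to knockout share was 1.25 (exact 95% interval 0.785 to 1.99) for miR-150-5p, which includes no difference, and 3.32 (1.09 to 12) for miR-342-3p, from 12 and 5 reads. These intervals take every read as independent and leave out the spread between libraries.

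The edgeR fit over the 35 miRNAs with enough reads in the enriched libraries put miR-150-5p at a log2 fold change of -0.40 (SE 0.38), which did not pass the test (adjusted p = 0.574). Of the 35, 2.86% passed in either direction: 1 miRNA, miR-142a-3p, named after its value was seen and the most frequent of the 35. Without overlap and lower in the knockout were 11.4% of the 35. miR-342-3p had too few reads for this fit. With no filter on low counts, 214 miRNAs entered and its log2 fold change was -1.58 (adjusted p = 0.542).

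Against the Ago2 IP of the same genotype, enrichment for miR-181 left the members' shares among non-181 reads within error in wild type. There 8.33% of 72 miRNAs passed the edgeR test, and neither member did: miR-150-5p was at -0.12 (SE 0.23) and miR-342-3p at -0.24 (SE 0.50), with an adjusted p of 0.885 for both. In the knockout 12% of 100 miRNAs passed, and again neither member did. miR-150-5p was at -0.19 (SE 0.23, adjusted p = 0.711), and miR-342-3p was at -1.36 (SE 0.55, adjusted p = 0.0978), with the 3 enriched libraries below the 3 Ago2 IP libraries, as in 13% of the 100 miRNAs. These fits share the libraries of the fits between genotypes.

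In the Ago2 IP libraries, 86.3% of miR-150-5p reads and 88.7% of miR-342-3p reads fell within the span of a protein-coding gene, against 89.3% of the reads of other non-181 miRNAs. A span runs from the first to the last base of a RefSeq gene, introns included. The reads were spread thinly. miR-150-5p had reads at 1011 named genes, 814 of them with 1 read and 18 with 5 or more, and its leading 10 genes took 7.14% of its reads at named genes. miR-342-3p had reads at 352 genes, 302 of them with 1 read and 4 with 5 or more.

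Rag1, which encodes a subunit of the recombinase that assembles T cell receptor genes, was the leading miR-150-5p target. It had 4, 6 and 4 reads in the wild-type libraries and 1, 4 and 4 in the knockout libraries, and was thus the only protein-coding gene with miR-150-5p reads in all 6. Of 975 non-181 reads at Rag1, 2.36% (interval 1.58 to 3.51%) were miR-150-5p, against 0.452% over all non-181 reads. Genes here were picked by their miR-150-5p reads, which favours a high share. Of the 28 coding genes with at least 4 such reads, 15 had an interval above the overall share. The miR-150-5p reads at Rag1 lay together: 18 of the 23 fell within chr2:101640237-101640342 on the minus strand, 1985 to 2090 bases before the 3′ end of the gene span. Within 20 bases of that window miR-150-5p made up 4.29% of 420 non-181 reads (interval 2.73 to 6.67%), and elsewhere in Rag1 0.906% of 552 (interval 0.388 to 2.10%). The window was set around the reads after they were seen, so the 2 shares are a description. Most other reads in it, 358, were of miR-142a-3p.

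Besides Rag1, 4 protein-coding genes had miR-150-5p reads in at least 5 of the 6 Ago2 IP libraries. Satb1, a chromatin organiser of thymocytes, had 5, 1 and 0 wild-type reads and 3, 2 and 2 knockout reads. Its 13 reads were 0.675% of the non-181 reads there (interval 0.395 to 1.15%), a share that the overall 0.452% falls within. Cfl2, which encodes an actin-severing cofilin, had 2, 3 and 1 wild-type reads and 0, 2 and 1 knockout reads. Those 9 reads were 6.82% of the gene's 132 non-181 reads (interval 3.63 to 12.5%), and 6 of them fell in chr12:54860701-54860736, where 12 non-181 reads lay in all. That stretch was set around the miR-150-5p reads after they were seen. Tnrc6b, a partner of Argonaute in silencing, had 7 reads, 2 from wild type and 5 from the knockout, and Camk1d, a calcium-dependent kinase, had 6, 3 in each genotype.

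Other genes among the 12 with most miR-150-5p reads are named here after their values were seen. Myb had 5, 2 and 1 reads in the wild-type libraries and 0, 0 and 1 in the knockout libraries, and the 9 reads were 2.50% of its 360 non-181 reads (interval 1.32 to 4.68%). Of these reads 5 lay in chr10:21125165-21125295, 235 to 365 bases before the end of the gene span. There miR-150-5p made up 18.5% of 27 non-181 reads (interval 8.18 to 36.7%), against 1.21% of 331 elsewhere in Myb. This window, like the Esco2 stretch that follows, was set around its miR-150-5p reads after they were seen. Such shares are a description. Esco2, which encodes an enzyme of sister chromatid cohesion, had few reads of any miRNA. All 6 of its miR-150-5p reads, from 4 libraries and both genotypes, fell in chr14:65819842-65819872, where no other miRNA had a read, and they were 6 of the 8 non-181 reads of the gene. Foxp1, a transcription factor of lymphocyte quiescence, had 8 reads, 6 from wild type and 2 from the knockout. They lay scattered from 118176 to 545934 bases before the 3′ end of a span of 597405 bases, none within 20 bases of another. Bcl11b, a factor of T lineage commitment, had 7 reads, 5 of them in chr12:107913947-107913970 beside reads of miR-20a-5p, miR-20b-5p and miR-93-5p. Counts this small, those of Myb and Foxp1 included, give no order between genotypes.

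No gene had miR-342-3p reads in 5 or more Ago2 IP libraries, so the genes below are likewise named after their values were seen. Ltb, which encodes the cytokine lymphotoxin beta, led with 4, 2 and 0 wild-type reads and 0, 2 and 1 knockout reads. These 9 reads were 32.1% of only 28 non-181 reads at the gene (interval 17.9 to 50.7%), against 0.139% over all non-181 reads. Picking genes by miR-342-3p reads favours a high share: 6 of the 7 coding genes with at least 4 had an interval above 0.139%. Of the 9 reads, 8 lay in chr17:35196145-35196180 on the plus strand, 125 to 160 bases before the end of the gene span. miR-181 reads shared that stretch in large numbers: 152 of its 163 reads were of the miR-181 family, and miR-342-3p made up 8 of the remaining 11. The stretch was set around the miR-342-3p reads after they were seen, so its shares are a description.

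The next genes by miR-342-3p reads were Runx1, a transcription factor of blood cell development, with 6 reads (0.777% of 772 non-181 reads), and Cep295, a centriole protein, with 6 reads (8% of 75). Ptprc, which encodes the phosphatase CD45, had 5 reads, of which 4 lay in chr1:138064186-138064214 beside 19 miR-181 reads. Themis, a gene for a signalling protein needed for thymocyte selection, had its 4 reads in the knockout and none in wild type, while Itpr2, a calcium channel gene, had its 4 in wild type and none in the knockout. Counts of this size give no order between genotypes.

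**Figure D3:**
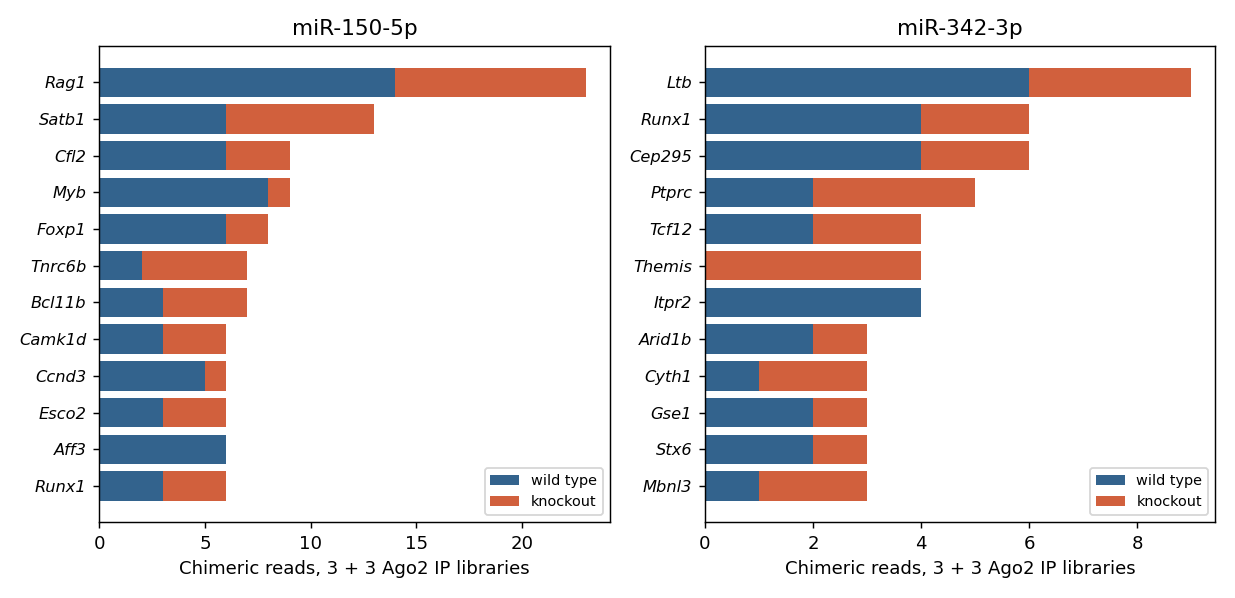
Chimeric reads of miR-150-5p (left) and miR-342-3p (right) at the 12 protein-coding gene spans with most reads (y axis), summed over 3 wild-type and 3 knockout Ago2 IP libraries (x axis, reads). Bars are stacked by genotype; Rag1 leads with 14 and 9 reads and Ltb with 6 and 3.

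**Figure D4:**
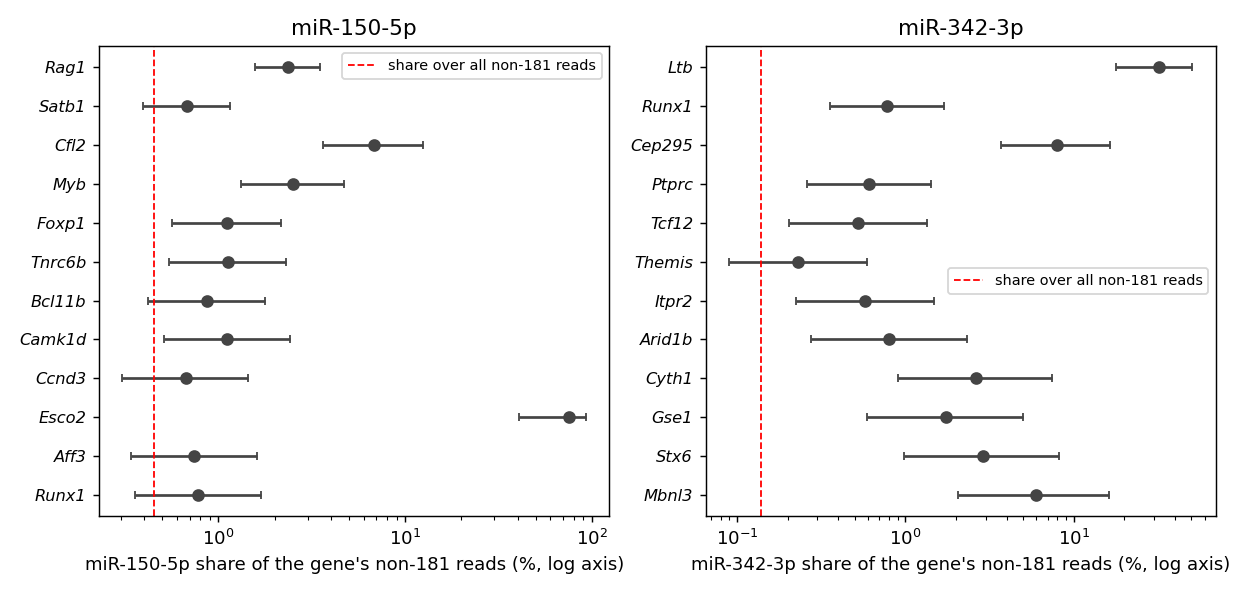
Share of a gene's non-181 reads that were miR-150-5p (left) or miR-342-3p (right), in percent on a log axis, at the same 12 genes each. Points are pooled over 6 Ago2 IP libraries with 95% Wilson intervals, and the dashed line is the share over all non-181 reads (0.452% and 0.139%); Esco2 and Ltb stand highest, from 8 and 28 reads, and the genes were ranked by reads of the member itself.

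Whether the targets changed within each miRNA between genotypes could not be fitted with the minimum count set, since 0 genes passed it for either member. With no filter, the edgeR fit over the miRNA's own reads called 0 of 1011 genes for miR-150-5p (3 at an unadjusted p under 0.05). It called 0 of 352 for miR-342-3p (1 at an unadjusted p under 0.05). DESeq2 was not run on these tables. With 814 of the 1011 genes and 302 of the 352 at 1 read, such a fit could hardly call any. The 0 called therefore does not show that targets stayed the same. Target genes recurred only in part between genotypes: 108 coding genes had miR-150-5p reads in both, which is 18.8% of the 574 found in wild type and 21.1% of the 513 in the knockout. For miR-342-3p it was 17 genes, 8.17% of 208 and 11.5% of 148. Recurrence between libraries of 1 genotype was not computed, and most genes had 1 read. These shares therefore do not show a change of targets. Of the 59 coding genes with miR-150-5p reads in the enriched libraries, 21 (35.6%) also had them in the Ago2 IP libraries.

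The members shared 100 coding genes, 10.2% of the 979 of miR-150-5p and 29.5% of the 339 of miR-342-3p. Ordered by the smaller of the 2 counts, Runx1 led with 6 of each, and Themis (5 and 4) and Tcf12 (3 and 4) followed. They had 772, 1742 and 762 non-181 reads, and the sharing to be had from read depth alone was not computed. The members' reads at Runx1 lay 102481 to 222949 bases before the 3′ end of its span, none within 20 bases of another. Ltb had 2 reads of miR-150-5p beside its 9 of miR-342-3p.

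Grouped as clusters, runs of reads on 1 strand no more than 20 bases apart, miR-150-5p formed 42 clusters of at least 2 reads, 34 of them in more than 1 library and 28 in both genotypes. In 21 of the 42 no other miRNA had a read, as at Esco2, at Satb1 (4 reads at chr17:51764130-51764149) and at Pik3ip1, an inhibitor of PI3K signalling (3 reads at chr11:3341731-3341738). In 16 there were also miR-142a-3p reads and in 12 miR-181 reads. miR-342-3p formed 21 such clusters, 12 in more than 1 library and 6 in both genotypes, and 9 of the 21 held no other miRNA.

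Of 13 reported targets of miR-150, 4 had miR-150-5p reads: Myb (9), Foxp1 (8), Cbl, a ubiquitin ligase of receptor signalling (3), and Notch3, a Notch receptor (1). Their list summed to 0.960% of non-181 reads, against 0.410% over the 3357 coding genes with at least 20 non-181 reads, of which 21.8% had a miR-150-5p read. Of the 6 listed genes at that depth, 3 had one, and their median share was 0.384%, against 0 over all genes at that depth. The 6 genes held from 37 (Mtor) to 723 (Foxp1) non-181 reads. Read depth was not matched, so neither the count of genes nor the median shows an excess. The list's sum also takes in genes with fewer than 20 non-181 reads and was not tested. Reads of any miRNA were few at many of the others; Egr2 had none, but Zeb1 had 367 non-181 reads with 0 of miR-150-5p. Of 7 reported miR-342-3p targets, 1 had a miR-342-3p read, Rictor, a subunit of a kinase complex; Dnmt1 had 0 of 61 reads (interval 0 to 5.92%).

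Regulators of T cell development held reads of both members. Of 22, 10 had miR-150-5p reads, led by Satb1 (13), Myb (9), Foxp1 (8), Bcl11b (7), Runx1 (6) and Ikzf1 (4). The list summed to 0.680% of its 8382 non-181 reads, against 0.410% over the 3357 coding genes with at least 20 non-181 reads. miR-342-3p had reads at 7 of 22, led by Runx1 (6), Tcf12 (4), Bcl11b (2) and Tox (2). Its sum was 0.203%, from 17 reads, against 0.132% over the same 3357 genes. Both sums take in listed genes under that depth, and neither was tested. Among the 16 regulators with at least 20 non-181 reads, 9 had a miR-150-5p read and 7 a miR-342-3p read, where 21.8% and 7.72% of all such genes did; read depth was not matched. At the 4 mature T cell marker genes, with 246 non-181 reads, miR-150-5p had none and miR-342-3p had 1, at S1pr1.

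Along coding genes of known strand, 97.9% of 1074 miR-150-5p reads and 98.0% of 347 miR-342-3p reads lay on the gene's own strand, like 97.9% for other non-181 miRNAs. The median position, from 0 at the 5′ end of the span to 1 at the 3′ end, was 0.65 for miR-150-5p, 0.58 for miR-342-3p and 0.66 for the others. The stretch from 0.9 to 1 held 25.1%, 20.3% and 26.0% of reads. Within 1000 bases of the 3′ end lay 12.1%, 9.41% and 12.6%. No test was made of these positions.

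**Figure D5:**
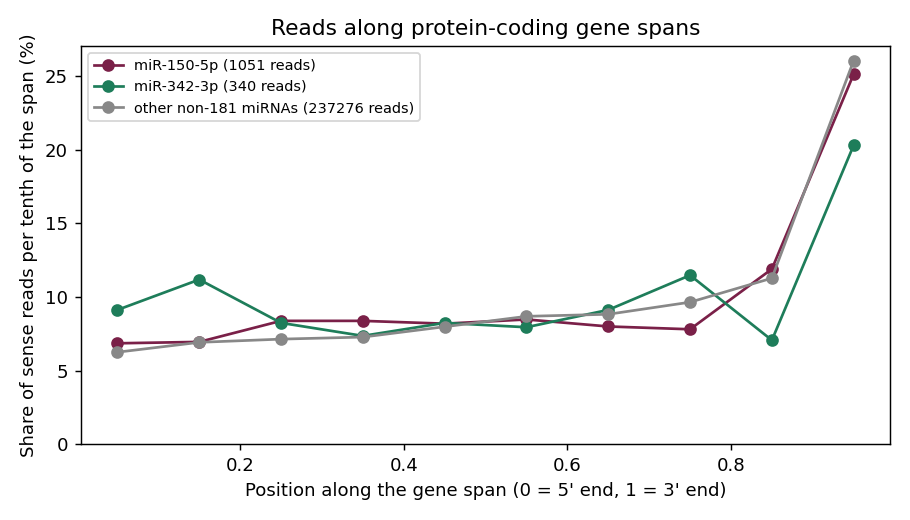
Share of sense reads (%, y axis) in 10 equal bins of the protein-coding gene span, from the 5′ end at 0 to the 3′ end at 1 (x axis), for miR-150-5p, miR-342-3p and the other non-181 miRNAs in the Ago2 IP libraries. All 3 lines are highest in the bin at the 3′ end, at 25.1%, 20.3% and 26.0%.

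The position with most miR-150-5p reads was in its own hairpin. At chr7:45121780 on the plus strand, 18 bases before the start of miR-150-3p, 12 Ago2 IP reads of miR-150-5p shared 1 base, 6 in wild type and 6 in the knockout, from 5 libraries. miR-181 reads were also found in the Mir150 hairpin in wild type alone, 2 from the Ago2 IP and 8 from the enriched libraries. The knockout libraries held far fewer miR-181 reads in all, so their absence there is no result about this hairpin. The Mir342 hairpin shown above had 0 reads in all 4 groups. Leaving out reads in hairpins or outside gene spans, an alternative added after the data were seen, gave a log2 difference between genotypes of -0.30 for miR-150-5p and -0.67 for miR-342-3p in the Ago2 IP.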

How the data were processed

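The deposited files list 1 chimeric read per line, with a 1-base position, strand and miRNA name. Each line was taken as 1 read, so values are counts, per the file contents the authors deposited. The submitters' processing notes name Bowtie2 2.4.5, SAMtools 1.11, STAR 2.7.10, UMI-tools 1.1.1 and bedtools 2.30.0 and the builds mm10 and GRCm38.p6, without roles; filters and duplicate removal are not stated in the labels. Per the labels' protocols, cells were crosslinked at 254 nm and libraries sequenced as paired 150-base reads.

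Positions were named by RefSeq GRCm38 gene spans, leaving reads in several spans unnamed. Shares use reads outside miR-181a/b/c/d-5p. miRNAs were fitted with edgeR 4.0.16 (R 4.3.3; TMM, quasi-likelihood, minimum count 10, Benjamini-Hochberg at 0.05), with DESeq2 1.42.0 as an alternative; the step was tested on simulated data. Gene spans within a miRNA had a minimum count of 5, which no gene passed. Shares were compared by exact permutation over libraries (Python 3.11.15, scipy 1.17.1).

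Named genes are the 12 coding spans with most reads among those in at least 5 of 6 Ago2 IP libraries, up to 6 of each list by reads, the leading clusters, and the 5 miRNAs with the highest correlation. The members and lists were chosen with earlier results of these data known. From the reported miR-150 targets and from the mature T cell markers, 1 gene each is not reported here, and both lists were counted without it. Alternatives were identical reads counted once, other denominators, no filter, library size alone, DESeq2, each library left out and a replicate block. Libraries of a group shared 1.5 to 13.5% of distinct reads; 4 enriched pairs could not be distinguished from sampling noise in miRNA counts (chi-square p 0.168 to 0.375) and were kept as separate libraries, given the few reads shared.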

Additional observations from a re-analysis of the deposited data

How the results depend on the processing

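The lower share of both members in the knockout kept its direction under every alternative run except the denominator of all chimeric reads. Over all chimeric reads the log2 difference for miR-150-5p turned to 0.18 in the Ago2 IP and that for miR-342-3p moved to -0.13; in the enriched libraries they turned to 4.35 and 3.18, a denominator that the loss of miR-181 reads shrinks. Leaving out 1 library at a time gave -0.42 to -0.28 and -0.81 to -0.47 in the Ago2 IP, and -0.61 to -0.36 and -2.09 to -1.23 in the enriched libraries.

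Replicate numbers showed no clear pairing of the libraries. Same-numbered deviations correlated at -0.13, -0.01 and 0.05 in the Ago2 IP and at -0.20, -0.08 and 0.22 in the enriched libraries. Only knockout 3 of the Ago2 IP, and wild-type 3 and knockout 3 of the enriched libraries, correlated best with their own number. With 3 libraries per group this check cannot exclude a pairing. With the replicate block the share differences stayed at -0.33 and -0.65 (Ago2 IP) and -0.45 and -1.62 (enriched), since a block leaves a balanced mean as it is. The block moved the miRNAs called from 7 to 21 in the Ago2 IP and from 12 to 7 for enriched against Ago2 IP in the knockout.

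The count of miRNAs called between genotypes in the Ago2 IP was 14 with no filter. With a library left out it was 1 to 12: 1 without wild-type 1, wild-type 3 or knockout 3, 2 without wild-type 2 and 12 without knockout 2. In the enriched libraries 1 call became 0 under DESeq2 (2 at an unadjusted p under 0.05) and, by edgeR, with no filter (13 at an unadjusted p under 0.05), with identical reads counted once (7) and, added after the data were seen, with knockout libraries 2 and 3 summed (7). It was 0 without wild-type 2, wild-type 3, knockout 1 or knockout 3 and 2 without wild-type 1. For enriched against Ago2 IP the count was 2 in wild type without enriched library 1 and up to 7 without others. In the knockout it was 7 with identical reads counted once, 19 without Ago2 IP library 2 and 4 without enriched library 1. miR-150-5p and miR-342-3p were called in none of the enriched fits run, with adjusted p-values of 0.416 to 0.999 and 0.0918 to 0.992. The cause of these moves was not tested. Composition by clusters, by total alone, under DESeq2, with the block or with a library left out was not run, for want of genes past the minimum count. The 80 and 17 enriched reads leave the members' differences there imprecise.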
